A study of Mus musculus with 14 samples.

Results

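Amino acid breakdown is one of the main metabolic tasks of the liver, and the 41 mouse genes described here encode its enzymes: those of histidine, serine and threonine, tyrosine, tryptophan, methionine and sulfur, proline, glycine, branched-chain and lysine breakdown, together with transaminases and the flavoenzymes that oxidize methylated amines. The genes were chosen by name, and all 41 of 41 had a row in the deposited table, where transcript rows were summed to 30436 features. All 41 also passed the filter on low counts that left 12300 features for testing. The table holds RNA sequencing of 14 samples, all taken from C3HeB/FeJ males. Mice of this inbred strain are prone to spontaneous liver tumours. Samples comprised 6 liver tumours labelled Grow, 4 liver tumours labelled Regress and 4 normal livers, and the labels give no criterion for growth or regression. All mice were 18 months old, had been examined for tumours at 10 months and then received injections on 5 days of every 28 for 6 cycles. Grow 1 and Grow 5 received the solvent DMSO. Grow 2, Grow 3 and Grow 4 received SAHA (suberoylanilide hydroxamic acid, a histone deacetylase inhibitor) at 85 mg/kg with TMZ (temozolomide, which alkylates DNA) at 22 mg/kg, and Grow 6 received SAHA at 100 mg/kg. Regress 1 and Regress 3 received TMZ at 31 mg/kg, Regress 2 received phosphate citrate buffer and Regress 4 received DMSO. All 4 normal livers received the buffer. Since Regress 2 was the only tumour given buffer alone, tumour and treatment cannot be fully told apart in any comparison with normal liver.

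Hepatocytes break amino acids down along separate routes that converge on pyruvate, ketone bodies and the intermediates of the citric acid cycle, and they pass the released nitrogen to the urea cycle. The work is divided along the blood flow of the liver lobule: hepatocytes near the portal vein carry much of the ammonia-releasing and urea-forming capacity, while those around the central vein make glutamine through glutamine synthetase (Glul). Several of the enzymes, tyrosine aminotransferase (Tat) and serine dehydratase (Sds) among them, are classical targets of glucocorticoids and glucagon in rodent liver.

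Library totals ran from 4.71 to 13.39 M (mega) estimated counts. Values are given as CPM (counts scaled to a common library size) unless stated otherwise. Hepatocyte markers were present in every library. Their sums, to which albumin contributed the most, were 43948 to 228482 CPM in Grow, 81588 to 172120 in Regress and 57365 to 82999 in Normal. Albumin (Alb) alone took 3.16% to 17.6% of a Grow library, 4.18% to 15.6% of a Regress library and 2.98% to 4.95% of a Normal library. Grow 3 and Grow 4 were closer to each other than any other pair of libraries: their median chi-square per gene was 0.94, where counting noise alone gives 0.455 and the next pair, Grow 5 and Grow 6, gave 2.36. The labels list them as 2 samples and they were tested as such, but the chi-square cannot tell 2 tumours from 2 preparations of the same tumour. Summed as 1 sample, they left no enzyme called in tumours against normal liver (Tat, adjusted p = 0.0531). A single sample code appears on both Regress 2 and Normal 4, with no explanation of the codes in the labels. Nothing in the labels says that the samples of a group came from separate animals, so p-values reflect sample-to-sample spread, which may be technical. Regress 4 stood apart by its summed markers of other cells. Its stellate cell and fibroblast markers were at 1171.5 CPM, against at most 365 CPM in every other library. Among these markers, Reln, Col1a1, Col1a2 and Col3a1 were highest in Regress 4, at 186 to 266 CPM, and so were Des and Acta2. Lrat there was below all 4 Normal libraries. Dcn, at 207 CPM, was inside the 132 to 294 CPM of Normal and below Regress 1. In Regress 4, recruited monocyte and macrophage markers were at 263.5 CPM, against at most 42.0 CPM in every other library. Gpnmb alone made up 216.7 CPM of this. Itgam, Itgax, Trem2 and Cx3cr1 were also highest in Regress 4, at 6.07 to 18.6 CPM, while Ccr2 (5.64) and Ly6c2 (2.40) were not.

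Across the 41 enzymes, tumours had lower levels than normal liver for most genes, but only 1 passed the test. Together the enzymes took 0.826% to 1.44% of the counts of a Grow library and 0.597% to 1.79% of a Regress library, against 1.63% to 2.46% of a Normal library. In a comparison of all 10 tumours with the 4 normal livers by edgeR's quasi-likelihood test, Tat was called lower at an adjusted p under 0.05 and no enzyme was called higher. This 1 of 41 stands beside 0.732% of all 12300 features called lower, 1.59% called higher and 2.32% called in either direction. At an unadjusted p under 0.05 there were 15 of the 41, beside 18.0% of all features. DESeq2 called 8 of the 41, beside 8.61%, and limma-voom 0, beside 1.03%. The log2 fold change was negative for 37 of the 41 (90.2%), with a median of -0.56, while 49.1% of all features were negative with a median of 0.01. Without Normal 4 the median was -0.33 and 34 were negative. The fold change lay below -1 for 10 enzymes, which are Sds, Hpd, Tat, Prodh, Gnmt, Mat1a, Cth, Dmgdh, Ahcy and Sdsl, beside 4.16% of all features. The 7 hepatocyte markers had a median of -0.41 in the same comparison, with 5 negative and none called. Ttr, Apoa2, Apoh, Fgb and Serpinc1 lay between -0.53 and -0.03, while Alb was at 1.48 ± 0.58 (adjusted p = 0.184) and Apoa1 at 1.13 ± 0.49 (adjusted p = 0.238). Their part in the enzyme levels was not tested. In bulk tissue, fewer cells of a type and less RNA per cell cannot be told apart.

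**Figure D1:**
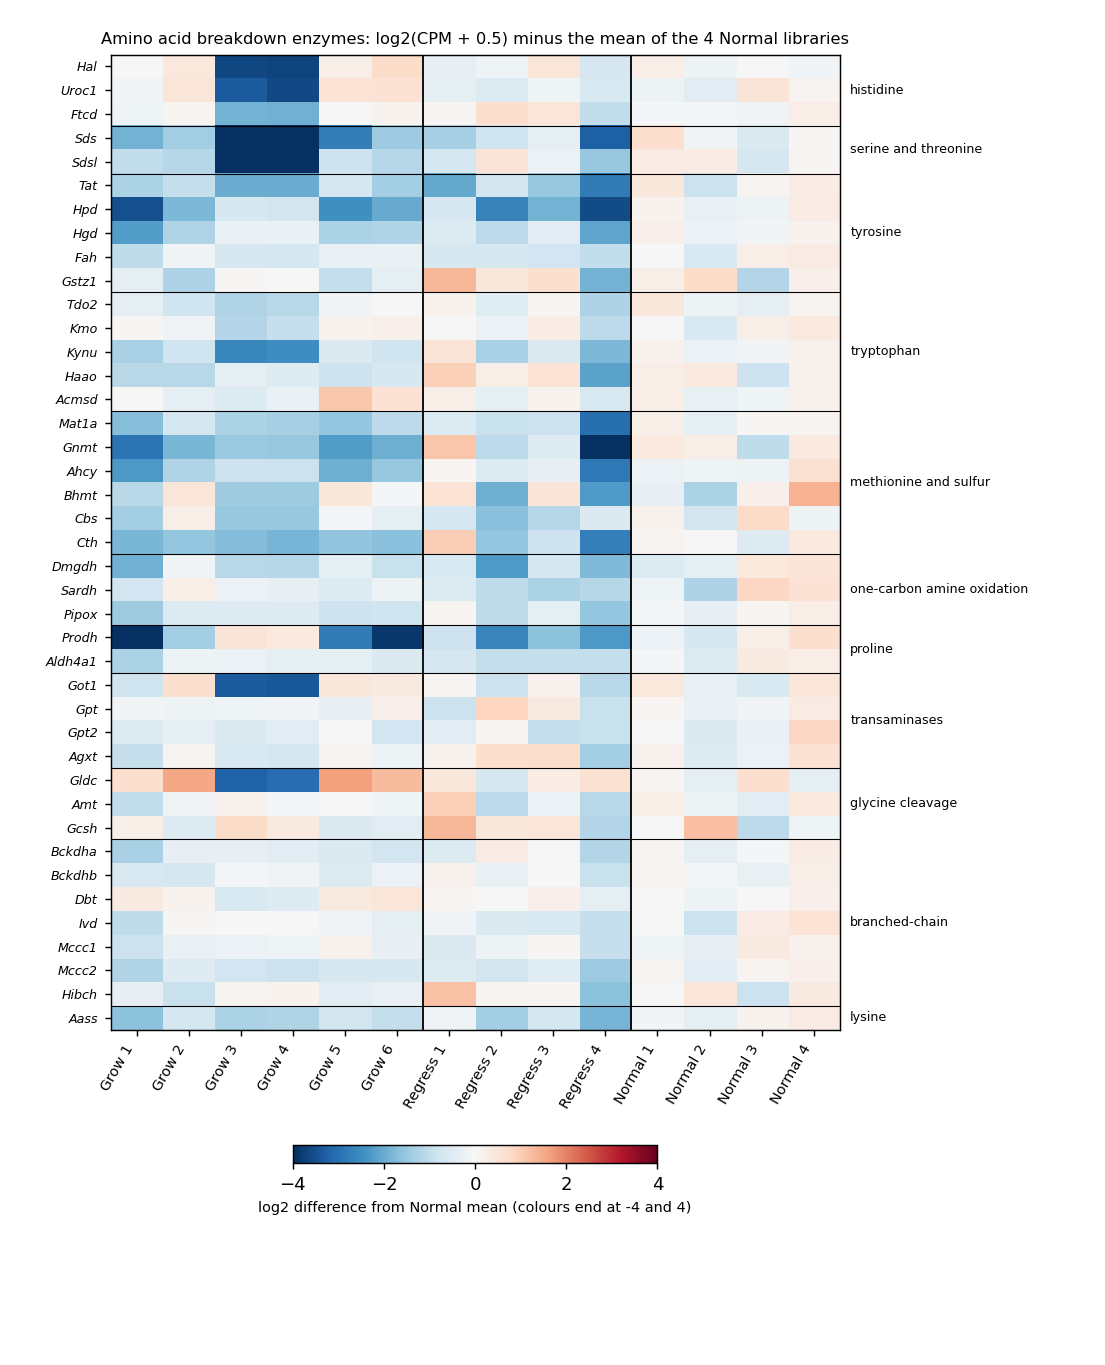
Level of each of the 41 enzymes (rows, grouped by pathway) in each of the 14 libraries (columns), as log2(CPM + 0.5) minus the mean of the 4 Normal libraries; blue is lower and red is higher, and colours end at -4 and 4. Blue prevails in the tumour columns, and Grow 3, Grow 4 and Regress 4 have patterns of their own.

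Tyrosine breakdown held the called gene. Tat, which removes the amino group of tyrosine in the first and rate-limiting step, ran from 269 through a median of 429.5 to 672 CPM in the 6 Grow tumours. It was at 261, 635, 371 and 153 CPM in Regress 1 to 4, against 1454.5, 591, 1158 and 1304 CPM in Normal 1 to 4. Normal 2 lay within the range of the tumours, below Grow 5 and Regress 2, and the other Normal libraries lay above every tumour. The log2 fold change of Tat was -1.52 ± 0.36 (SE, adjusted p = 0.0408), close to the threshold. Leaving out 1 library at a time moved it between -1.74 and -1.37 and its adjusted p between 0.0343 and 0.14, and the call was lost without any one of Grow 1, 3, 4, 5 or 6, Regress 3 or Normal 1 to 4. Hpd makes homogentisate in the second step and had the largest fold change of the pathway. Its level ran from 178 through a median of 547 to 1324 CPM in Grow and was at 1304, 325, 554 and 173 CPM in Regress 1 to 4, against 2258, 1691, 1801 and 2606 CPM in Normal 1 to 4. Every tumour was below every normal liver, yet the tumours themselves spread over a wide range, and the fold change of -1.70 ± 0.51 did not pass (adjusted p = 0.0835). For Hgd, which opens the ring of homogentisate, the groups did not overlap either, with 102 to 401 CPM in Grow and 111 to 354 in Regress against 410 to 556 in Normal (-0.93 ± 0.35, adjusted p = 0.165). Fah, the last enzyme of the route, averaged 320 ± 73.4 CPM in Grow (SD, n = 6) and 262 ± 29.1 in Regress (n = 4), against 456 ± 122 in Normal (n = 4), with a fold change of -0.66 ± 0.23 (adjusted p = 0.141). Gstz1, which isomerizes maleylacetoacetate just before that step, was at -0.09 ± 0.46.

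**Figure D2:**
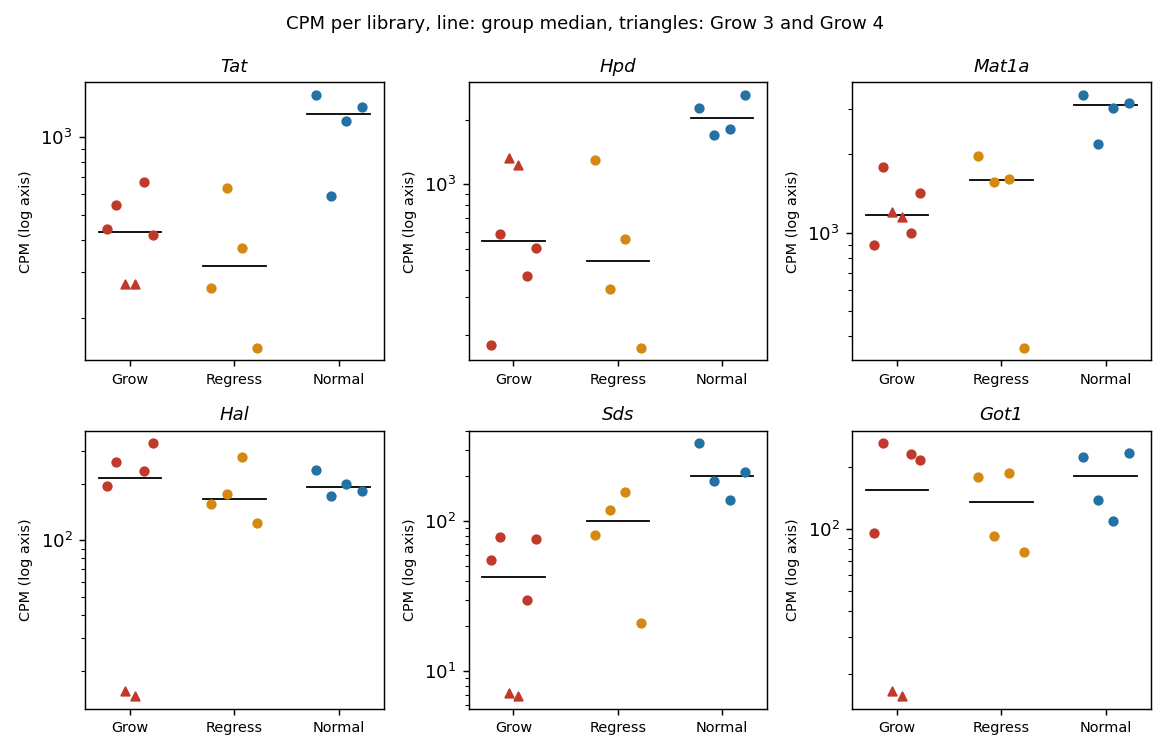
CPM of 6 enzymes per library on a log axis, with a line at each group's median and triangles for Grow 3 and Grow 4. Hpd and Mat1a do not overlap between tumour and normal libraries, Tat does through Normal 2, and Grow 3 and Grow 4 are the lowest points for Hal, Sds and Got1.

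The methionine cycle and transsulfuration had a median of -1.05. All 6 of its genes had negative fold changes against normal liver and none passed. Mat1a, which makes the methyl donor S-adenosylmethionine in hepatocytes, ran from 897.5 through a median of 1171 to 1786 CPM in Grow. In Regress 1 to 4 it was at 1977, 1567, 1615 and 361 CPM, against 3385, 2194, 3014 and 3160 CPM in Normal 1 to 4. No tumour reached the lowest normal liver, and the fold change was -1.17 ± 0.35 (adjusted p = 0.0835). Gnmt uses that methyl donor to methylate glycine and had the largest fold change of the group. It ran from 207 through a median of 431 to 580 CPM in Grow and was at 3452, 781, 1117 and 86.9 CPM in Regress 1 to 4, against 2104, 1892, 795 and 2105 CPM in Normal 1 to 4. All 6 Grow tumours lay below the lowest Normal library, whereas Regress held both the highest and the lowest value of the 14. The fold change of Gnmt was -1.18 ± 0.57 (adjusted p = 0.304) over all tumours and -2.02 ± 0.65 (adjusted p = 0.113) in Grow alone. Cth, which releases cysteine from cystathionine, was narrow in Grow at 170 ± 14.9 CPM (SD, n = 6), against 565 ± 143 in Normal (n = 4), a fold change of -1.74 ± 0.50 (adjusted p = 0.0831). Its Regress values were 1091, 188, 310 and 82.5 CPM. Ahcy, which splits S-adenosylhomocysteine, had a fold change of -1.40 ± 0.46 in Grow (adjusted p = 0.12) and did not overlap with Normal there. Cbs, which joins homocysteine to serine, and Bhmt, which remethylates homocysteine from betaine, overlapped between tumours and normal liver, with Bhmt spread from 590 to 3682 CPM within Normal. Their fold changes were -0.89 ± 0.37 (adjusted p = 0.216) for Cbs and -0.59 ± 0.60 (adjusted p = 0.722) for Bhmt.

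Serine and threonine dehydratases showed low values in the Grow tumours. Sds, which turns serine into pyruvate and ammonia, ran from 6.84 through a median of 42.7 to 79.0 CPM in Grow and was at 81.4, 119, 157 and 20.9 CPM in Regress 1 to 4, against 330, 186, 138 and 212 CPM in Normal 1 to 4. Grow did not overlap with Normal, and Regress overlapped through Regress 3 only. The fold change of Sds was -2.36 ± 0.67 in Grow (adjusted p = 0.0792), the largest of the 41 in that comparison, and -1.20 ± 0.74 in Regress (adjusted p = 0.461). Its relative Sdsl, expressed at a lower level, averaged 5.16 ± 3.86 CPM in Grow (SD, n = 6) and 12.8 ± 7.62 in Regress (n = 4), against 16.5 ± 4.81 in Normal (n = 4), and its fold change over all tumours was -1.02 ± 0.65 (adjusted p = 0.482).

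Proline oxidation differed widely from tumour to tumour. Prodh, the mitochondrial enzyme that starts it, ran from 2.34 through a median of 30.1 to 162 CPM in Grow, and was at 64.6, 17.8, 36.6 and 23.0 CPM in Regress 1 to 4, against 96.9, 72.4, 135 and 180 CPM in Normal 1 to 4. Grow 3 and Grow 4, at 162 and 151 CPM, lay inside the Normal range and the other tumours below it. The fold change of -1.34 ± 0.76 did not pass (adjusted p = 0.399). Aldh4a1, which completes the conversion to glutamate, had a smaller and steadier difference of -0.71 ± 0.23 (adjusted p = 0.112), and in Regress its 173 to 212 CPM lay below the 232 to 435 CPM of Normal.

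The flavoenzymes of one-carbon amine oxidation, Dmgdh, Sardh and Pipox, act on dimethylglycine, sarcosine and pipecolate, and all 3 had negative fold changes that did not pass. Dmgdh ran from 93.4 through a median of 178 to 319 CPM in Grow and was at 235, 72.8, 219 and 104 CPM in Regress 1 to 4, against 245, 269, 478 and 502.5 CPM in Normal 1 to 4. Regress lay below Normal throughout and Grow overlapped with it (-1.07 ± 0.36 over all tumours, adjusted p = 0.118). Sardh was at -0.81 ± 0.31 (adjusted p = 0.171) and Pipox at -0.68 ± 0.27 (adjusted p = 0.192). Aass, which starts lysine breakdown, ran from 78.8 through a median of 116.5 to 151 CPM in Grow and was at 220, 95.5, 151 and 66.9 CPM in Regress 1 to 4, against 228, 187, 269 and 308.5 CPM in Normal 1 to 4. Only Regress 1 reached the Normal range, and the fold change was -0.98 ± 0.28 (adjusted p = 0.0742).

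Branched-chain genes differed little apart from 1 subunit. Of its 7 genes, 6 had negative fold changes and the median was -0.34. Mccc2, the beta subunit of the methylcrotonyl-CoA carboxylase of leucine breakdown, ran from 23.5 through a median of 33.5 to 38.2 CPM in Grow and was at 37.4, 32.4, 39.1 and 19.6 CPM in Regress 1 to 4, against 59.2, 40.8, 59.5 and 63.0 CPM in Normal 1 to 4. No tumour reached the lowest normal liver, and the fold change of -0.79 ± 0.20 missed the threshold narrowly (adjusted p = 0.0539). The alpha subunit Mccc1, made by another gene, was at -0.34 ± 0.22 (adjusted p = 0.488) and overlapped between the groups. Bckdha and Bckdhb, which form the first component of the branched-chain ketoacid dehydrogenase, were at -0.44 ± 0.27 and -0.30 ± 0.21. Its core subunit Dbt stood at 0.04 ± 0.23. Ivd, which acts on the leucine route, and Hibch, which acts on the valine route, were at -0.46 ± 0.26 and -0.09 ± 0.38.

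Tryptophan, histidine, glycine and transaminase genes had the smallest median fold changes over all tumours. The tryptophan median of -0.31 was close to the -0.34 of the branched-chain genes. In Grow alone it was -0.56, against -0.33 for the branched-chain genes. In the tryptophan route Kynu, which cleaves kynurenine, ran from 23.9 through a median of 72.4 to 100.2 CPM in Grow and was at 213, 60.3, 99.1 and 42.2 CPM in Regress 1 to 4, against 168, 126, 139 and 167 CPM in Normal 1 to 4. Grow lay below Normal and Regress spanned it (-0.89 ± 0.42 over all tumours, adjusted p = 0.287). The entry enzyme Tdo2 was at -0.43 ± 0.32, Kmo at -0.24 ± 0.31, Haao at -0.31 ± 0.40 and Acmsd, which turns the pathway away from NAD synthesis, at 0.02 ± 0.30. Uroc1, which hydrates urocanate from histidine, ran from 22.4 through a median of 322 to 417 CPM in Grow and was at 216, 189, 244 and 183 CPM in Regress 1 to 4, against 238, 207, 399 and 298 CPM in Normal 1 to 4. Its groups overlapped (-0.32 ± 0.60, adjusted p = 0.887), and the low end of Grow came from Grow 3 and Grow 4. Hal and Ftcd, before and after it in the histidine route, were at -0.15 ± 0.63 and -0.11 ± 0.41. Among the transaminases, the mitochondrial alanine enzyme Gpt2 ran from 169.5 through a median of 206 to 289.5 CPM in Grow and was at 215, 307, 154 and 155 CPM in Regress 1 to 4, against 293, 193, 242 and 514 CPM in Normal 1 to 4, with overlap throughout (-0.56 ± 0.27, adjusted p = 0.308). Gpt, Agxt and Got1 were at -0.05 ± 0.30, -0.10 ± 0.35 and -0.37 ± 0.61. Gldc, the decarboxylating subunit of the glycine cleavage system, ran from 9.85 through a median of 195 to 305 CPM in Grow and was at 133, 61.5, 120 and 149 CPM in Regress 1 to 4, against 103, 75.2, 155 and 73.8 CPM in Normal 1 to 4. Its fold change of 0.45 ± 0.71 (adjusted p = 0.849) was the highest of the 41, though it was -0.01 with limma-voom and -0.04 with the replicate block, with 4 Grow tumours at or near the top of the Normal range or above it and the other two far below it. The carrier subunit Gcsh and the aminomethyl-transferring subunit Amt of the same system were at 0.06 ± 0.45 and -0.17 ± 0.34.

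**Figure D3:**
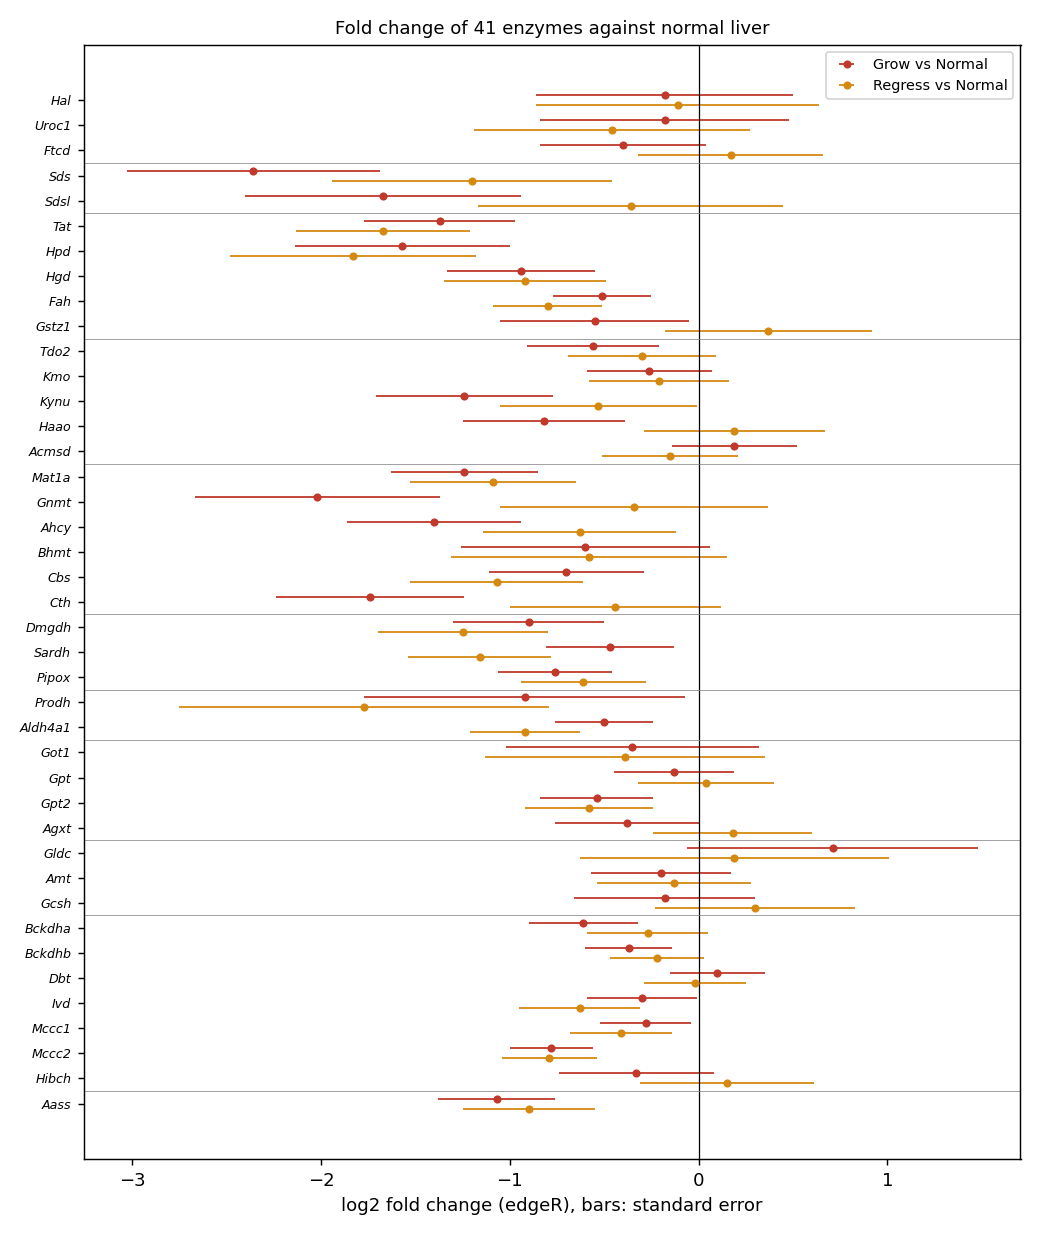
Log2 fold change of each of the 41 enzymes in Grow and in Regress, each against the same 4 Normal libraries, with bars of 1 standard error from edgeR. Most points lie left of 0, and Sds, Gnmt and Cth lie farther left in Grow while Tat, Hpd and Prodh lie farther left in Regress.

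Grow and Regress were each set against the same 4 normal livers, so their fold changes are not independent. In Grow no enzyme was called, where 1.76% of all features were called (0.642% lower). At an unadjusted p under 0.05 there were 14 of the 41, beside 16.6% of all features. DESeq2 called 8 of the 41, beside 8.27%, and limma-voom 0, beside 0.732%. The median was -0.55 and 38 of 41 were negative. Values of 12 enzymes lay below Normal with no overlap (Sds, Sdsl, Hpd, Hgd, Kynu, Mat1a, Gnmt, Ahcy, Cth, Pipox, Mccc2 and Aass), beside 4.28% of all features, and 0 lay above it, beside 5.27%. In Regress no enzyme was called either, where 0.0244% of all features were, with 10 of the 41 at an unadjusted p under 0.05, beside 16.2% of all features. DESeq2 called 2 of the 41, beside 5.81%, and limma-voom 0, beside 0.0%. The median was -0.44 and 33 of 41 were negative. This median was -0.79 without Regress 1, -0.25 without Regress 4 and -0.29 without Normal 4. Values of 8 enzymes lay below Normal with no overlap (Hpd, Hgd, Fah, Mat1a, Dmgdh, Prodh, Aldh4a1 and Mccc2), beside 3.2% of all features, and 0 lay above it, beside 2.72%. Over all 10 tumours, Hpd, Hgd, Mat1a and Mccc2 did not overlap with Normal, beside 0.935% of features lower in this way. No enzyme was above Normal without overlap, beside 1.09% of features.

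The direct comparison of Regress with Grow called no enzyme and no feature (0.0% of 12300). Grow 2, 3, 4 and 6 had received SAHA and no Regress tumour had, while Regress 1 and Regress 3 had received TMZ alone. The growth label and the treatment therefore cannot be fully told apart in this comparison. At an unadjusted p under 0.05 there were 3 of the 41, beside 10.0% of all features, and DESeq2 and limma-voom called 0, beside 0.253% and 0.0%. The median fold change was 0.07, with 17 of 41 negative, and 0 enzymes separated the groups without overlap, beside 0.374% of features higher and 0.545% lower in Regress. The 3 at an unadjusted p under 0.05 were Gnmt (1.67 ± 0.64, adjusted p = 0.474), Cth (1.30 ± 0.50, adjusted p = 0.474) and Haao (1.01 ± 0.43, adjusted p = 0.478), all higher in Regress. Sds and Sdsl, at 1.16 to 1.31, differed by more than Haao but were not under that p. The differences of Gnmt, Cth and Haao rest on a divided Regress group. Regress 1 was the highest of all 14 libraries for 8 enzymes (Gstz1, Kynu, Haao, Gnmt, Cth, Amt, Gcsh and Hibch), beside 14.9% of all features. Regress 4 was the lowest of the 14 for 21 enzymes (51.2%), beside 11.4% of all features, and its median enzyme lay 1.25 below the Normal mean on the log2 scale, that is at -1.25, against -0.13 in Regress 1. Without Regress 4, Gnmt (2.06, adjusted p = 0.0309), Cth (1.64, adjusted p = 0.037) and Haao (1.35, adjusted p = 0.0307) were called higher in Regress. These 3 of the 41 stand beside 9.98% of the features tested (1249). Without Regress 1 the same contrasts were 0.64, 0.19 and 0.68 and none was called. Regress 4 is the library with the raised sums of stellate and macrophage markers. Among hepatocyte markers it was the lowest of the 14 libraries for Ttr (2285 CPM), Apoa2 (1246), Apoh (1104) and Serpinc1 (934). Alb at 131059 CPM and Apoa1 at 15843.5 CPM were above all 4 Normal libraries, and Fgb at 3645.5 CPM was inside the Normal range. The part of these markers in its enzyme levels was not tested.

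Grow 3 and Grow 4 had a pattern of their own, which is described by its values only, since it was noticed in the data. The 3 histidine enzymes were low in both: Hal, which deaminates histidine, was at 15.5 and 14.6 CPM, against 195 to 331 in Grow 1, 2, 5 and 6, 123 to 279 in Regress and 172 to 240 in Normal. Uroc1 was at 27.3 and 22.4 CPM and Ftcd, which hands the formimino group to folate, at 78.0 and 75.7. The cytosolic aspartate transaminase Got1 was at 16.4 and 15.6 CPM, against 95.5 to 259 in Grow 1, 2, 5 and 6, and Sds and Gldc were at 7.20 and 6.84 CPM and at 9.85 and 11.2 CPM. For 9 enzymes (Hal, Uroc1, Ftcd, Sds, Sdsl, Kynu, Got1, Gldc and Dbt) these were the lowest of the 14 libraries, beside 4.4% of all features, and for 0 they were the highest, beside 4.79%. Other enzymes were above the remaining Grow tumours in the same libraries: Prodh was inside the Normal range, Hgd was at 401 and 401 CPM and Hpd at 1324 and 1237. Of the 41, 14 lay below and 11 above all 4 other Grow tumours, beside 28.0% and 27.1% of all features. Summed markers of the lobule's zones differed in the same libraries. Summed periportal markers were at 812 and 789 CPM in Grow 3 and Grow 4, against 3368 to 6140 in Grow 1, 2, 5 and 6, 1920 to 8146 in Regress and 7382 to 12334 in Normal. Of the 8 periportal markers, Asl was at 131.5 and 120.4 CPM there, inside the 76.3 to 135.8 of Grow 1, 2, 5 and 6. Every other one was below all of Grow 1, 2, 5 and 6. Summed pericentral markers were at 26251 and 26386 CPM, against 141 to 1704, 373 to 3651 and 4917 to 11306 in the same order, with Glul alone at 9962 and 9771. Pooled zone markers and enzymes were read from the same libraries, and their part in the enzyme levels was not tested.

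**Figure D4:**
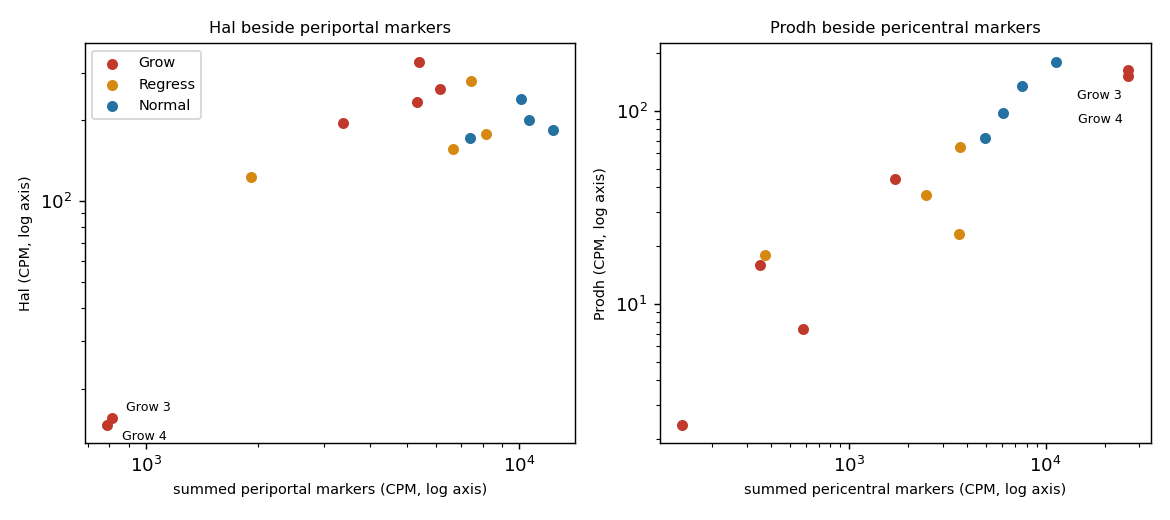
Left, CPM of Hal against the summed CPM of 8 periportal markers; right, CPM of Prodh against the summed CPM of 9 pericentral markers, 1 point per library on log axes. Grow 3 and Grow 4 lie at the low end of both axes on the left and at the upper end of both on the right.

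Promoters of 4 of these genes are shown because the genes part ways in Grow 3 and Grow 4 or carry the called difference: Tat, Hal, Hpd and Prodh. They were taken from RefSeq on GRCm38.p6 and cover 250 bases before to 50 after the annotated gene start, read 5′ to 3′ on the gene's strand. Capitals mark matches, on either strand, to TATAAA (the TATA box), GTTAAT (a half-site of HNF1), TTGCNNAA (the C/EBP core) or CTTTGA (the core of TCF/LEF factors, which act in Wnt signalling); the motifs do not overlap in the lines shown.
Tat (chr8:109990186-109990485, plus strand): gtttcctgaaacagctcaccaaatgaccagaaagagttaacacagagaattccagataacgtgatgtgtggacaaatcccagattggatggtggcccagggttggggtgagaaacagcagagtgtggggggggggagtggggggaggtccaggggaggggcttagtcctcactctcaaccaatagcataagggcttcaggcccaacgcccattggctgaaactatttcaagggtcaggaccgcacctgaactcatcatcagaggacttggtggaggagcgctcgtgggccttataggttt
Hal (chr10:93488518-93488817, plus strand): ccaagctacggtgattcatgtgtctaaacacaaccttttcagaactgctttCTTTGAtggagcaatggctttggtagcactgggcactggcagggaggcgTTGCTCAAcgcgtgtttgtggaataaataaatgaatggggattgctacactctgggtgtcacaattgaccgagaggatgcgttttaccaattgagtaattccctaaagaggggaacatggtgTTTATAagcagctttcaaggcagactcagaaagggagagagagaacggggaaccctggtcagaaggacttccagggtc
Hpd (chr5:123182674-123182973, minus strand): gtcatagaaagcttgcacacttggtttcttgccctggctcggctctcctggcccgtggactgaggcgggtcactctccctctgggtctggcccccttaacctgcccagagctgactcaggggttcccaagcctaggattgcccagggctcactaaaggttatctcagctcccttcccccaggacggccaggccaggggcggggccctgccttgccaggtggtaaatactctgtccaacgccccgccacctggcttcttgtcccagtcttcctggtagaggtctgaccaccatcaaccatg
Prodh (chr16:18089141-18089440, minus strand): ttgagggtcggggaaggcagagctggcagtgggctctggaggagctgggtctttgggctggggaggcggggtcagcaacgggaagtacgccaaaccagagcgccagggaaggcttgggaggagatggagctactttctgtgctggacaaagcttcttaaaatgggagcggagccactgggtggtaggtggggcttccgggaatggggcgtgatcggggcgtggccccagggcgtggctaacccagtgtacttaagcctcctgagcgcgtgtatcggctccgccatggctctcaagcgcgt
The Hal window held 3 matches, in order CTTTGA, TTGCNNAA and the reverse complement of TATAAA, and the other 3 windows held none. Of the 41 enzymes, 34 had a promoter in the table. CTTTGA was in 7 of these 34 (Aass, Agxt, Amt, Haao, Hal, Kmo and Uroc1), beside 16.0% of 32851 promoters. TATAAA was in 4 (Ftcd, Hal, Hgd and Tdo2), beside 13.6%. TTGCNNAA was in 3 (Aass, Hal and Hgd), beside 10.8%, and GTTAAT in 3 (Bckdhb, Ftcd and Haao), beside 7.1%. A match is a description of the letters and not a binding site.

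TMZ was tested as a term beside the group, with 5 tumours that received it (Grow 2, 3 and 4 and Regress 1 and 3) and 5 that did not. SAHA came with it in 3 of the 5. No enzyme and no feature was called (0.0% of 12300), with 7 of the 41 at an unadjusted p under 0.05, beside 13.9% of all features. DESeq2 called 4 of the 41 (Hgd, Hpd, Pipox and Prodh), beside 3.79%, and limma-voom 0, beside 0.0163%. The median was 0.28 and 15 of 41 were negative, beside a median of -0.03 and 52.5% negative over all features. Without Regress 4 the enzyme median was 0.14. It was 0.44 with Grow 3 and Grow 4 left out and 0.54 with the replicate block. Prodh was at 44.3, 162, 151, 64.6 and 36.6 CPM in Grow 2, 3 and 4 and Regress 1 and 3, against 2.34, 15.9, 7.38, 17.8 and 23.0 CPM in Grow 1, 5 and 6 and Regress 2 and 4. The 2 sets did not overlap, and the fold change was 2.83 ± 0.64 (adjusted p = 0.0814). Hpd was at 589.5, 1324, 1237, 1304 and 554 CPM in the same TMZ tumours, against 178, 376, 504.5, 325 and 173 CPM in the others, again with no overlap (1.70 ± 0.38, adjusted p = 0.0814). Pipox was the third enzyme without overlap, at 166 to 259 CPM against 84.2 to 142 CPM (0.73 ± 0.24, adjusted p = 0.208). These 3 stand beside 0.78% of all features higher in TMZ tumours without overlap, and none was lower, beside 0.967%. With Grow 3 and Grow 4 left out, a choice made after seeing the data, the fold changes were 1.80 for Prodh (adjusted p = 0.623) and 1.42 for Hpd (adjusted p = 0.747). Without Grow 2, Prodh, Hpd and Hgd (2.97, 1.88 and 1.12) were called, beside 6.01% of features, and without Regress 3 Prodh was (3.24), beside 0.875%. All 9 pericentral markers had positive fold changes in the same fit, with a median of 3.55 and a lowest value of 2.55. Of these, 6 were at an unadjusted p under 0.05 and none was called. Their sums overlapped, at 1704 to 26386 CPM in the TMZ tumours and 141 to 3632 in the others, with Regress 4 (3632) above Grow 2 (1704) and Regress 3 (2469.5). The part of these markers was not tested.

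**Figure D5:**
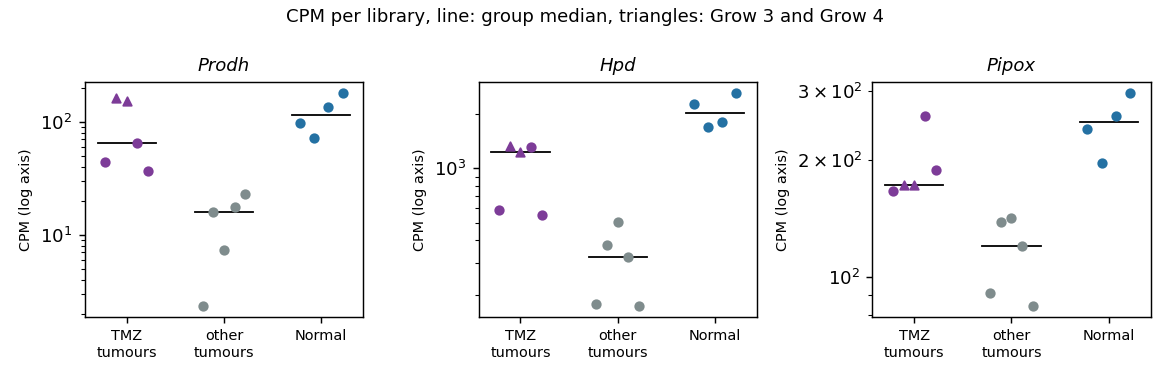
CPM per library, on a log axis, of the 3 enzymes whose values did not overlap between the 5 TMZ tumours and the 5 other tumours, with the 4 Normal libraries beside them; lines are medians and triangles are Grow 3 and Grow 4. The TMZ tumours are above the other tumours in all 3 panels.

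SAHA was compared within Grow, as 4 tumours with it against 2 with DMSO. No enzyme and no feature was called (0.0% of 12300), with 2 of the 41 at an unadjusted p under 0.05, beside 2.64% of all features, and 0 called by DESeq2 or limma-voom, beside 0.424% and 0.0%. Prodh had the largest difference, 3.34 ± 1.13 (adjusted p = 1), and Hpd was at 1.72 ± 0.74. Grow 2, 3 and 4 had received TMZ as well, with Prodh at 44.3, 162 and 151 CPM and Hpd at 589.5, 1324 and 1237 CPM. Grow 6, the one tumour with SAHA alone, was at 7.38 CPM for Prodh and 504.5 CPM for Hpd. All 9 pericentral markers had positive fold changes in this comparison, with a median of 5.26. Each was at an unadjusted p under 0.05 and none was called. Their part in the enzyme levels was not tested.

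Other genes of the same pathways were read from a list of 49, of which 48 were tested. In tumours against normal liver 1 was called lower and none higher, 41 of 48 were negative and the median was -0.43. The called gene was Ppm1k, the mitochondrial phosphatase that activates the branched-chain ketoacid dehydrogenase. It ran from 7.69 through a median of 30.3 to 38.5 CPM in Grow and was at 37.8, 13.8, 14.7 and 13.4 CPM in Regress 1 to 4, against 60.4, 54.8, 100.4 and 62.5 CPM in Normal 1 to 4. Every tumour was below every normal liver (-1.56 ± 0.36, adjusted p = 0.0394). The call of Ppm1k was lost with limma-voom (adjusted p = 0.0658), with Grow 3 and Grow 4 summed (0.0518), with the shared-code samples left out (0.166), with the replicate block (0.243), and without any one of Grow 4, 5 or 6, Normal 1 to 4 or Regress 2, 3 or 4 (at most 0.148). In Grow none of the 48 was called and 45 were negative, and in Regress none was called and 36 were negative. Csad, which makes hypotaurine from cysteine sulfinate, had the lowest fold change of the list at -3.13 ± 0.78 (adjusted p = 0.0504). It also had one of the larger TMZ differences, 2.92 ± 0.56 (adjusted p = 0.0668), beside Oat at 5.40 ± 1.15 (adjusted p = 0.08), an ornithine aminotransferase that counts as a pericentral marker as well. Oat was at 2424 and 2446 CPM in Grow 3 and Grow 4. It was at 84.5, 209 and 185 CPM in Grow 2, Regress 1 and Regress 3, and at 8.28 to 52.5 CPM in the tumours without TMZ. Over the main and alternative fits its TMZ difference ran from 2.67 to 6.12.

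Of 10 regulators of these pathways, all 10 had negative fold changes in tumours and none was called, the closest being Klf15, a transcription factor of amino acid breakdown, at -1.01 ± 0.28 (adjusted p = 0.0722). All 8 periportal markers were negative and 1 was called. Asl, the urea cycle lyase, averaged 115 ± 21.2 CPM in Grow (SD, n = 6) and 200 ± 82.7 in Regress (n = 4), against 409 ± 72.0 in Normal (n = 4). Its fold change was -1.43 ± 0.27 over all tumours (adjusted p = 0.0238) and -1.83 ± 0.30 in Grow (adjusted p = 0.0178). The tumour call of Asl was lost without any one of Normal 1 to 4 (adjusted p at most 0.0863), with the shared-code samples left out (0.102) and with the replicate block (0.208). In Grow it was lost without Normal 1 (0.0748) or Normal 4 (0.069), with the shared-code samples left out (0.0666) and with the replicate block (0.253). Of 9 pericentral markers 4 were negative and none was called. Summed proliferation markers, at 28.2 to 56.1 CPM in Grow and 3.16 to 57.1 in Regress against 1.89 to 3.16 in Normal, differed between the groups along with the enzymes, and their part was not tested.

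Per transcript length, in TPM (the length-scaled equivalent of CPM), the enzymes covered a wide range in normal liver. The highest means were those of Gnmt at 3276 ± 914 TPM, Hpd at 3023 ± 514, Mat1a at 1753 ± 466, Ahcy at 1421 ± 324 and Bhmt at 1414 ± 938 (SD, n = 4). Each mean lay within 1 SD of its neighbour in this order except for Hpd beside Mat1a. For Mat1a beside Ahcy this held by the SD of Mat1a but narrowly failed by that of Ahcy. The lowest were Acmsd at 13.3 ± 2.71 TPM, Gcsh at 26.8 ± 16.7 and Sdsl at 26.9 ± 5.90. In Grow the mean of Gnmt was 940 ± 387 TPM and that of Hpd 1169 ± 872 (SD, n = 6), and in Regress they were 1940 ± 1926 and 651 ± 455 (SD, n = 4).

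The genes most like Tat across the 14 libraries, by Pearson's r of log2 CPM over all tested features, were Pck1 (r = 0.909, Spearman's rho = 0.864), the gluconeogenic enzyme that is also a periportal marker, Pex14 (0.901 and 0.89), Dgat2 (0.898 and 0.908), Mfsd2a (0.881 and 0.851) and Nsun2 (0.878 and 0.842). Pex14 encodes a peroxisomal import protein, Dgat2 an enzyme of triglyceride synthesis, Mfsd2a a lipid transporter and Nsun2 an RNA methyltransferase. These values describe a ranking over libraries that share groups and depth, and carry no test.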

How the data were processed

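Snap-frozen tissue, Qiagen RNeasy RNA and Illumina TruSeq v2 libraries were used, per the labels' protocols. The kit is not stranded, and so reads of overlapping and antisense genes are mixed. Salmon 0.3.1, edgeR 3.14.0 and the build mm9 are named in the submitters' processing notes. For read length and the release of the transcript annotation, the sources used here give nothing, while the deposited rows are named by RefSeq accessions. The deposited values are expected counts for 35230 transcripts (14 sample columns, per the file headers), and 1 further column holds no values and was not used. Rows were matched to symbols through RefSeq on GRCm38.p6 (26081 rows) or GENCODE M21 (144), used for names, length and promoters only. The 9005 unmatched rows, with 3.52% to 12.05% of a library, stayed features of their own. Counts were summed per symbol and rounded.

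All 14 samples entered 1 fit with 3 groups, by edgeR 4.0.16 in R 4.3.3: robust quasi-likelihood test, TMM, filterByExpr, Benjamini-Hochberg adjustment over 12300 features, called under 0.05. The tumour effect averages those of Grow and Regress, TMZ was a term beside the group, and SAHA was tested in a fit with 4 groups. Standard errors were derived from the F statistic, as |log2 fold change| over its square root. The biological coefficient of variation was 0.484. The members, lists and tests were chosen with earlier results of these data known. Called enzymes and, per pathway, the one with the largest tumour fold change are given by sample, and other pathway genes where called. Other values by sample (Mat1a, Cth, Hal, Got1 and those for Grow 3, Grow 4 and TMZ), and Csad and Oat, uncalled, were chosen after their values were seen. Of the list genes, Trac and Hbb-b1 had no row, and Dao and some cell type markers did not pass the filter. Tested were 1 of 6 listed T cell, 4 of 6 cholangiocyte, 4 of 5 B cell and 2 of 4 erythroid markers.

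On simulated counts for tumours against normal liver (12102 genes), the test recovered 18% of genes changed by 1 on the log2 scale, 68.2% of those changed by 2 and 98.4% of those changed by 4. At a change of 1 it recovered 6.35% for Grow against Normal (12107 genes), 4.05% for Regress against Normal (12136 genes) and 4.92% for Regress against Grow (12021 genes). False calls made up from 0.943% of calls (Regress against Grow) to 6.8% (Regress against Normal). The simulated libraries were drawn independently, from a common mean and an estimated spread per gene. A close pair such as Grow 3 and Grow 4 was not modelled, so these shares hold for independent samples only. Alternatives were DESeq2 1.42.0, limma-voom (limma 3.58.1), RLE size factors, other filters, a fit to the compared samples only, removal of a length trend, a replicate block, Grow 3 and Grow 4 summed, and samples left out.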

Additional observations from a re-analysis of the deposited data

Results flagged for a closer look

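Within a group, 1 library stood far from the others for 4 of the 123 sets of values (41 enzymes in 3 groups), by the gap to its nearest neighbour relative to the range; chance flags about 1 set in 20. Gnmt in Normal 3 was at 795 CPM, against 1892 to 2105 CPM in the other Normal libraries. Ahcy in Normal 4 was at 2657 CPM, against 1471 to 1553 CPM. Aldh4a1 in Regress 1 was at 212 CPM, against 173 to 176 CPM in the other Regress tumours. Gpt in Grow 6 was at 255 CPM, against 177 to 205 CPM in the other Grow tumours.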

How the results depend on the processing

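Counts of called enzymes changed with the method. In tumours against normal liver, 1 enzyme was called (of 285 features in all), against 2 with Grow 3 and Grow 4 left out (Hpd and Prodh, of 570, chosen after seeing the data), 8 with DESeq2 (of 1055), 3 with the length trend removed (of 638), and 0 with the 2 samples of shared code left out (of 0), Grow 3 and Grow 4 summed (of 216), limma-voom (of 127), no low-count filter (of 214) or the replicate block (of 0). In Grow against Normal 0 were called (of 217), against 1 with Grow 3 and Grow 4 left out (of 474), 8 with DESeq2 (of 1014) and 7 with only the compared samples (of 877). In Regress against Normal 0 were called (of 3), against 2 with DESeq2 (of 712), and for TMZ 0 (of 0), against 4 with DESeq2 (of 464). The cause was not tested. Leaving out 1 library at a time gave 0 to 6 in tumours against normal liver (6 of 991 without Regress 1, 2 of 283 without Regress 4), 0 to 8 in Grow against Normal (8 of 651 without Regress 4, 3 of 593 without Regress 1), 0 to 3 in Regress against Normal (3 of 667 without Regress 1), 0 to 3 in Regress against Grow (3 of 1249 without Regress 4) and 0 to 3 for TMZ (3 of 737 without Grow 2). The tumour fold change of Gldc was -0.01 with limma-voom and -0.04 with the replicate block. Same-numbered samples deviated with a correlation of -0.52 to 0.2 over 12 pairs of groups and numbers, 2 of them over 0.1, so the numbers were not taken to pair samples; with the replicate block no enzyme was called in any comparison. The member median for Regress against Grow was -0.07 without Regress 1 and 0.29 without Regress 4. Library totals were 4.71 to 13.39 M estimated counts, and the effect of depth was not varied.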
